A study of Mus musculus with 8 samples.

Results

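The comparison set the methylation of hippocampal DNA from double-knockout mice (DKO, Mutyh-/-xOgg1-/-) beside that from Mutyh-/- mice, over the regions that each had listed as differing from wild type (WT). A region was taken when its location, gene and feature stood in both lists of a sequence context. Of 1730 DKO and 1701 Mutyh-/- entries in the CG context, 508 were shared, which was 29.4% of the DKO list and 29.9% of the Mutyh-/- list and covered 437 genes. In the CHH context, where neither of the bases after the cytosine is a G, 377 were shared, which was 43.1% of 874 DKO entries and 24.2% of 1555 Mutyh-/- entries and covered 339 genes. The CG and CHH lists of all 3 knockouts held 9321 entries. Whole-genome bisulfite sequencing of 6-month-old male mice on a C57BL/6N background gave 8 libraries, 2 for each of DKO, Mutyh-/-, Ogg1-/- and WT. DKO animals came from crossing the single knockouts, so DKO and Mutyh-/- shared the loss of Mutyh and differed in Ogg1. Nothing in the labels ties the 2 libraries of a genotype to different animals, and p-values therefore measure only the spread between libraries, which may be technical. A level is the percentage of methylation at the median cytosine kept in a region, and differences are given in percentage points as DKO minus Mutyh-/-.

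Mutyh and Ogg1 are DNA glycosylases of base excision repair. Ogg1 removes the oxidised base 8-oxoguanine where it pairs with cytosine, and Mutyh removes adenine that was inserted opposite 8-oxoguanine. Most methylated cytosine in mammalian DNA lies in CG dinucleotides and is copied at replication, whereas methylation outside CG, of which CHH is a class, accumulates in neurons after birth. Methylation at a transcription start site (TSS) usually accompanies a silent promoter, and gene bodies of expressed genes are usually methylated. The hippocampus holds neurons, glia and vessels, and in bulk tissue a shift of cell mixture and a change within cells cannot be told apart. No RNA was measured in these libraries, so the tissue could not be checked by its expressed markers.

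Regions at the TSS were windows of 2 kb centred on the start, and which of their cytosines entered a level is not given. The promoters of 4 named genes show a part of the CG dinucleotides in such windows. These are shown because Irf1 was a gain and Bloc1s1 a loss of over 20 points in both knockouts, and because Acot11 and Scp2 had the largest positive and negative differences between DKO and Mutyh-/- among TSS regions on the same side of WT whose libraries did not overlap. Sequences are from RefSeq on GRCm38.p6, run 5′ to 3′ from 250 bases before the start to 50 after it, and have each CG in capitals.
Irf1 (chr11:53769764-53770063, plus strand): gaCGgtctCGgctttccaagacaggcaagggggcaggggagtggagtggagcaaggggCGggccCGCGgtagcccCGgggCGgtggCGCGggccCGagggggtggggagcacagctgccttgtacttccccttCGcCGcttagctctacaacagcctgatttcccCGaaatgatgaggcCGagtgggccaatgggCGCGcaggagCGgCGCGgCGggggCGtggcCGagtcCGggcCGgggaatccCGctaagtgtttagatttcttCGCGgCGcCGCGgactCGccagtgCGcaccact
Bloc1s1 (chr10:128923475-128923774, minus strand): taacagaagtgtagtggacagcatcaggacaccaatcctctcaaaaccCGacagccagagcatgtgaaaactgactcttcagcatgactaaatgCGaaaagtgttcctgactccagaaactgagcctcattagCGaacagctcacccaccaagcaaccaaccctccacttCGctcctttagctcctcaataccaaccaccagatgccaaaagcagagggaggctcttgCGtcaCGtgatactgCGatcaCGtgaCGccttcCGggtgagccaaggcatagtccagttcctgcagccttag
Acot11 (chr4:106799782-106800081, minus strand): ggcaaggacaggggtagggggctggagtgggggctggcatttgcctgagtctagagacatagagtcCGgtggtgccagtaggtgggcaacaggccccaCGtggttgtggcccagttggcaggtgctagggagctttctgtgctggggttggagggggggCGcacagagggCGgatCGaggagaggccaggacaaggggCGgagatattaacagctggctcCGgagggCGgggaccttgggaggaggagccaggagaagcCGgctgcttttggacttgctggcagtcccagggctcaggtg
Scp2 (chr4:108118498-108118797, minus strand): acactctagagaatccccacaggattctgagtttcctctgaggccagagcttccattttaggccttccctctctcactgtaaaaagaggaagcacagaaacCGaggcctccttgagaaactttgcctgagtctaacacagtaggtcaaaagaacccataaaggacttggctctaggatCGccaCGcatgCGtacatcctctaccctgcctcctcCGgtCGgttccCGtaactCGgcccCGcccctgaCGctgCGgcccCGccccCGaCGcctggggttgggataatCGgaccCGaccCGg
The Irf1 promoter held 32 CG in 300 bases, a number reached by 9.5% of all 32851 promoters in the RefSeq table. Scp2 held 17, Bloc1s1 10 and Acot11 9, numbers reached by 31.4%, 43.5% and 45.8% of promoters. The whole 2 kb windows held 132 CG for Irf1, 64 for Scp2, 65 for Bloc1s1 and 41 for Acot11. A CG on either strand was present in 94.6% of all promoters, with a median of 7. In the 74 promoters of the 49 genes that had a shared TSS region and an entry, the median was 10.

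Both knockouts lay on the same side of WT in nearly all shared regions. In CG, 313 regions were above WT in both, 181 were below WT in both and 14 lay on opposite sides. In CHH, 368 were below WT in both, 2 were above and 7 were on opposite sides. The whole CG lists were mostly losses, 57.9% of the DKO and 65.1% of the Mutyh-/- entries, unlike the shared CG regions. In the whole CHH lists 97.7% of the DKO and 99.5% of the Mutyh-/- entries were losses, so the shared CHH regions were near that share. Regions were selected on these same levels, since a list held only regions where every library pair differed from WT in 1 direction, so the counts describe the selection. A pair of libraries entered when the difference divided by the mean, on a score from 1 to 2, passed 0.1 in size. Recomputed from the deposited medians, the smallest ratio of a region over its pairs was lowest at 0.0969 in CG (the Nol4l gene body) and at 0.0938 in CHH (the Pcx gene body), and highest at 0.276 in the Mutyh gene body. It was below 0.1 in 98 CG and 51 CHH regions, so the recomputed ratio is not exactly the one filtered on, and regions outside the limit were not analysed here. Some entries held values identical to those of a different transcript or gene, 34 of those shared in CG and 28 in CHH.

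DKO replicate 1 read higher than its partner, most of all in CHH. It was above DKO replicate 2 in 319 of 508 CG regions and in 289 of 377 CHH regions, while Mutyh-/- replicate 1 was above replicate 2 in 257 and 194. Among the 313 CG gains, 53 were at 100% in DKO replicate 1 and 18 in DKO replicate 2, against 22 and 16 in the Mutyh-/- replicates. The same library also took different values when it was paired with a different WT library, by a median of 4 to 5 points in CG and 4 points in CHH. The 90th percentile of this gap was 18.3 to 21 points in CG and 12 to 15 points in CHH. Its largest values were 57 and 44 points, so the averaged level of a single region can hide a wide gap. WT libraries gave a further check, since the same 2 libraries stand in the DKO and the Mutyh-/- list. Their mean level differed between the lists by a median of 3 points in size in CG and 4.25 points in CHH, and by up to 33.25 and 39.5 points. No read depth accompanies the levels, so how far depth limits single regions is unknown.

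Over the CG regions as a whole, the median levels of the DKO libraries overlapped those of the Mutyh-/- libraries. Gains had a median level of 88.5% and 83.5% in the DKO libraries and 86% and 82.5% in the Mutyh-/- libraries, against 62% to 64.5% in WT. Losses had medians of 50% and 46% in DKO and 47.5% and 48.5% in Mutyh-/-, against 69% to 71% in WT. The median difference over all 508 regions was 1 point (exact permutation test over the 4 libraries, 2-sided p = 1.0, smallest possible 0.333). Without DKO replicate 1 it was -0.5 points. The difference was positive in 289 regions, negative in 205 and 0 in 14, with quartiles at -2.75 and 4.5 points. In size it had a median of 3.75 points between means of 2 libraries, and single libraries differed by a median of 5.5 points in DKO and 5 points in Mutyh-/-. Means vary less than single libraries, so these sizes are not compared.

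**Figure D1:**
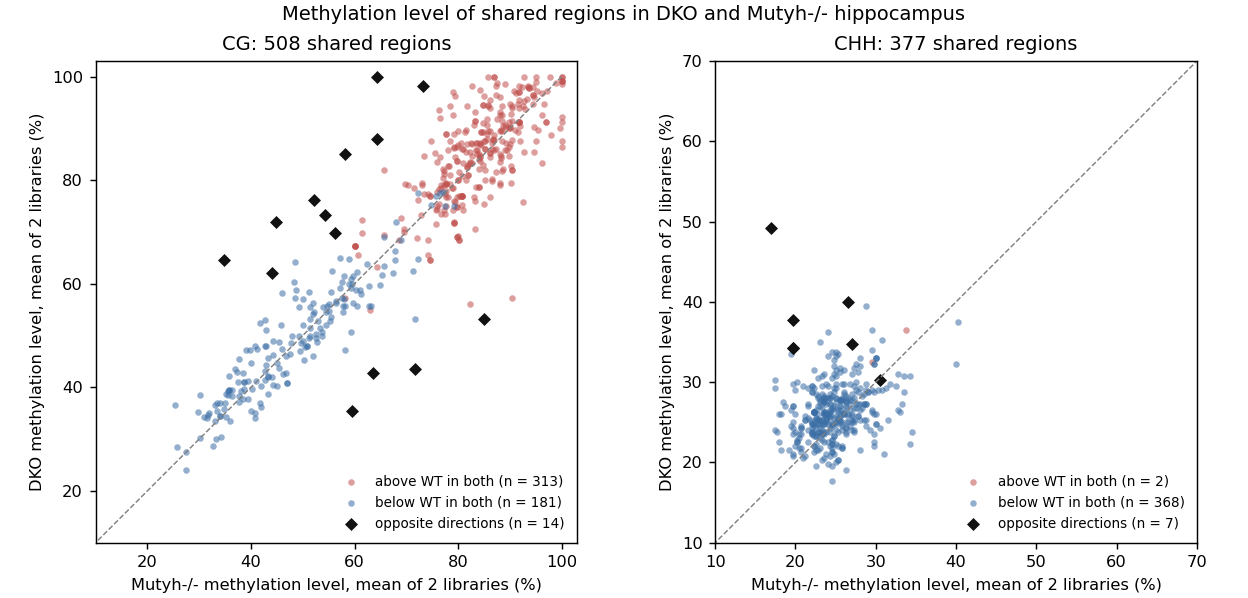
Mean methylation level of each shared region in DKO (vertical axis, %) against Mutyh-/- (horizontal axis, %), for CG on the left and CHH on the right, with n = 2 libraries per genotype and the dashed line marking equal levels. Regions on the same side of WT gather along the line in CG (r = 0.933 over all 508 regions) and form a round cloud in CHH (r = 0.246 over all 377). CG holds gains and losses, which the selection set at separate levels, and CHH is nearly all losses over a narrow range. The r values of the contexts are therefore not compared. The 14 CG regions on opposite sides of WT (black) stand off the line.

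No CG region passed the test between DKO and Mutyh-/-, in which both genotypes had already been selected, on these same values, for lying beyond WT. In a limma fit over all 508 regions with Benjamini-Hochberg adjustment, 0.0% (0 regions) reached an adjusted p of 0.05, and 34 regions, 6.69%, had an unadjusted p below 0.05. The lowest adjusted p was 0.151, shared by 8 regions that all lay on opposite sides of WT. The DKO libraries were both above or both below the Mutyh-/- libraries in 164 regions, 32.3%, of which 97 (19.1%) were higher in DKO and 67 (13.2%) lower. The WT libraries of the DKO list lay wholly apart from the same WT libraries of the Mutyh-/- list in 29.1% of regions. A difference that misses this test is not shown to be absent. The 95% intervals given below for single regions rest on the spread between libraries only. They take no account of how regions were selected and named, or of the gaps between pairs averaged within a library. How large a difference could be is therefore not known from them.

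In regions on the same side of WT, the difference between genotypes ran with the WT shift, which is the WT level listed beside DKO minus that listed beside Mutyh-/-. Across the 494 CG regions on the same side of WT the correlation was r = 0.858, and across the 370 such CHH regions it was 0.785. With the regions on opposite sides included it was 0.368 over 508 and 0.46 over 377. Every listed level had to lie beyond its WT level. The recomputed ratio was under 0.12 in some pair of either genotype in 487 of the 508 CG regions. The same held in 366 of the 377 CHH regions, and both counts include regions on opposite sides. How far the selection shaped these correlations was not tested. These are descriptions over regions that share libraries, and each genotype's level was listed in a pair with a WT level. Where WT differed by at most 5 points (340 CG regions), the difference had a median size of 2.25 points, 20% of regions had libraries apart and 1 had an unadjusted p below 0.05. Where WT differed by over 10 points (47 regions), the size was 13.5 points, 83% had libraries apart and 25 had an unadjusted p below 0.05. Of these, the 33 on the same side of WT had a size of 12.5 points, 75.8% with libraries apart and 12 with an unadjusted p below 0.05, and the other 14 lay on opposite sides. The part of the WT shift in each difference was not tested beyond the alternatives with WT subtracted.

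**Figure D2:**
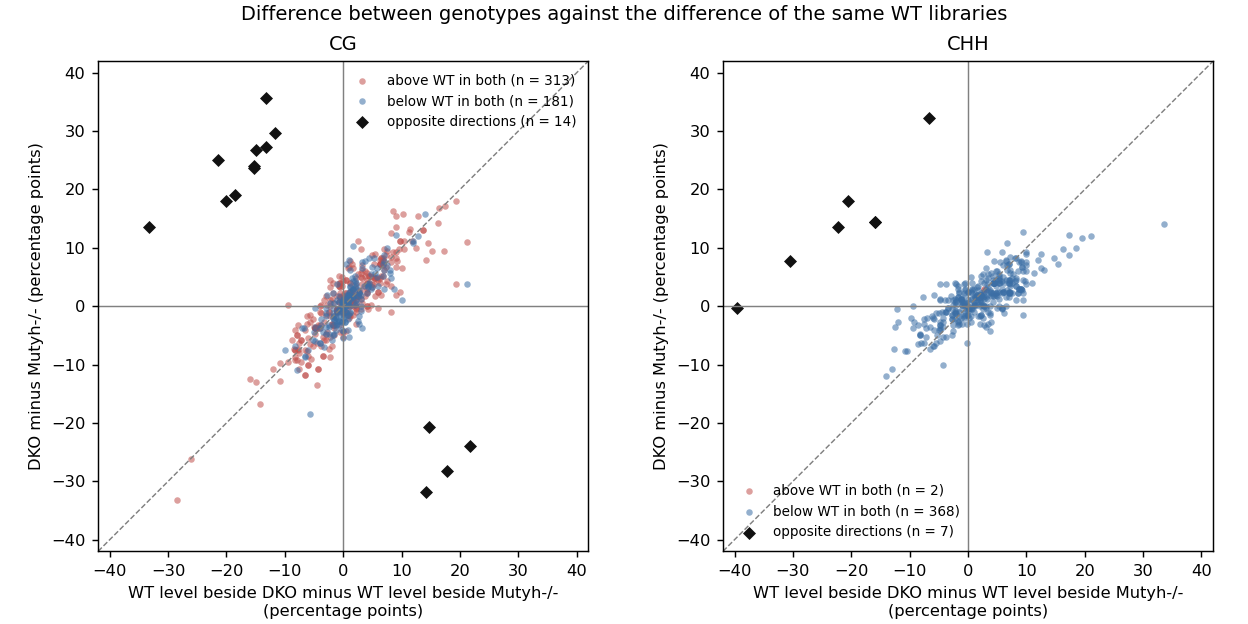
DKO minus Mutyh-/- of each shared region (vertical axis, percentage points) against the WT level listed beside DKO minus the WT level listed beside Mutyh-/- (horizontal axis, percentage points), for CG on the left and CHH on the right. Regions on the same side of WT run along the dashed line of equal differences (r = 0.858 in CG and 0.785 in CHH, against 0.368 and 0.46 over all plotted regions), and the black regions on opposite sides of WT lie where the 2 differences have opposite signs, except the CHH region of Trio at -0.25 points.

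The Mutyh gene body had the largest change from WT that the knockouts shared. This region (chr4:116808734-116818431, 120 CG dinucleotides) was at 46.5% and 40% in DKO libraries and 40% and 45.5% in Mutyh-/- libraries, against 93.5% to 95% in WT. Both genotypes lack Mutyh, the locus was not listed in Ogg1-/-, and their libraries overlapped. The difference was 0.5 points (95% interval -11.1 to 12.1). A methylation level at the locus does not itself show the deletion. The transcription end site (TES) window of Hprt, the purine salvage enzyme on chromosome X, had the next largest shared change, with 41% and 27.5% in DKO libraries and 31% and 31% in Mutyh-/- libraries, against 69% to 73% in WT. Its difference was 3.25 points (-11.2 to 17.7).

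At transcription start sites, 51 of 58 shared CG regions were below WT in both knockouts, 4 were above and 3 were on opposite sides. Losses had a median level of 42.75% in DKO and 42.75% in Mutyh-/-, and the median difference was 0.5 points. Irf1, a transcription factor of the interferon response, was above WT, at 81.5% and 78.5% in DKO libraries and 85% and 85.5% in Mutyh-/- libraries, against 56% to 61% in WT. Its DKO libraries were both the lower ones, by 5.25 points (SE 3.72, limma adjusted p = 0.914). Il18r1, a subunit of the interleukin-18 receptor, had 65.5% and 65.5% in DKO and 65.5% and 56% in Mutyh-/-, so the groups touched. Acot11, an acyl-CoA thioesterase, had the largest positive difference with libraries apart among TSS regions on the same side of WT, with 47.5% and 54.5% in DKO and 44% and 42% in Mutyh-/- (8 points, 95% interval -3.04 to 19). The mean WT level there was within 1 point between the lists. The single WT libraries were at 71% and 76% beside DKO and at 73.5% and 71.5% beside Mutyh-/-. Scp2, a sterol carrier protein, had the largest negative one among those regions, with 57% and 54.5% in DKO and 62.5% and 63% in Mutyh-/- (-7 points, -16.5 to 2.51). Bloc1s1, a subunit of a complex for lysosome-related organelles, had 49% and 55% in DKO and 44.5% and 47% in Mutyh-/-, a difference of 6.25 points beside a WT shift of 8 points. None of the 55 TSS regions on the same side of WT had an unadjusted p below 0.05.

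Gene bodies held 417 of the 508 CG regions, with 305 above WT in both knockouts, 104 below and 8 on opposite sides. Those above WT were long and poor in CG, with medians of 390 kb and 6.75 CG per kb over 275 regions with repeats counted once, and those below were short, with medians of 13.7 kb and 17.9 CG per kb over 101. The median difference was 1.25 points in the gains and 0.62 points in the losses. Macf1, a linker of actin and microtubules, had 100% and 92.5% in DKO libraries and 75.5% and 83.5% in Mutyh-/- libraries (16.75 points, SE 5.01, limma adjusted p = 0.56), and its WT level was higher beside DKO by 16.5 points. Wnt7b, a secreted Wnt ligand, was below WT in both, with 63% and 65.5% in DKO and 55.5% and 41.5% in Mutyh-/- (15.75 points), beside a WT shift of 14 points. Dtna, which encodes a dystrobrevin of the dystrophin complex, had the most negative difference, with 71.5% and 43% in DKO and 89% and 92% in Mutyh-/- (-33.25 points, SE 9.81, limma adjusted p = 0.56), beside a WT shift of -28.5 points. In these 3 regions the libraries of the genotypes were apart and WT moved by a like amount in the same direction. Skint5 departed from that, with 61.5% and 45% in DKO and 73% and 70.5% in Mutyh-/- (-18.5 points, 95% interval -35.1 to -1.94) while WT shifted by -5.75 points. Its limma adjusted p was 0.711. WT was at 91% and 89.5% beside DKO and at 93% and 99% beside Mutyh-/-, but the same libraries were at 56% and 70% beside Ogg1-/-. Ogg1-/- lay above WT there, at 80.5% and 86.5%, so the WT level of Skint5 is unsteady.

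The TES windows, also of 2 kb, held 33 CG regions, of which 26 were below WT in both knockouts, 4 were above and 3 were on opposite sides. The median difference of the losses was -0.12 points. Kdm6b, a demethylase of histone H3 lysine 27, had 50% and 46% in DKO libraries and 41.5% and 40% in Mutyh-/- libraries (7.25 points, -2.67 to 17.2). Its mean WT level was within 0.5 points between the lists. Ceacam16, above WT in both, had 78% and 79% in DKO and 72% and 71% in Mutyh-/- (7 points, -2.35 to 16.4). In both of these genes DKO read higher in each library. Plekhg6, an exchange factor for small GTPases, had 37% and 33% in DKO and 41% and 40.5% in Mutyh-/- (-5.75 points, -15.6 to 4.1). Cbx8, a Polycomb subunit, had 50% and 50.5% in DKO and 51.5% and 53.5% in Mutyh-/-. Libraries were apart in each of these 4, and no limma adjusted p was below 0.914.

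**Figure D3:**
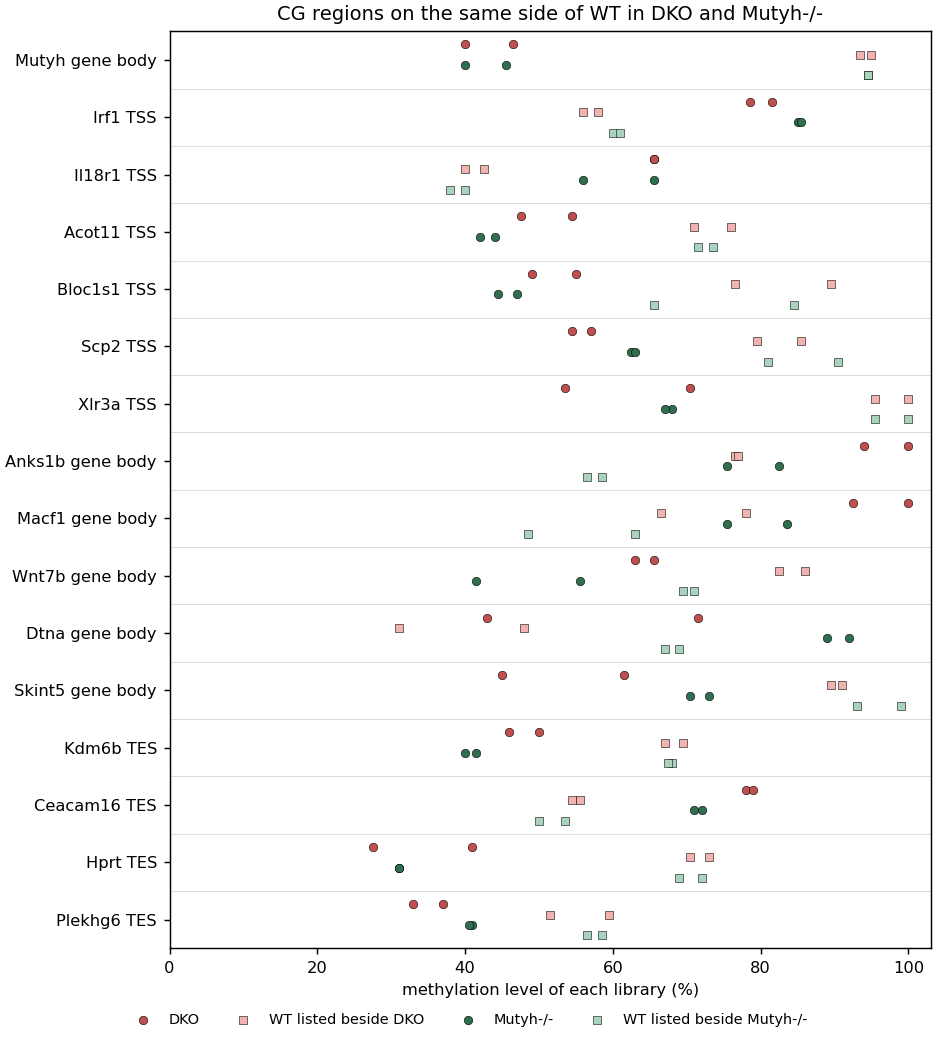
Methylation level (%) of each library in 16 named CG regions that lay on the same side of WT, with DKO and Mutyh-/- as circles and the WT libraries listed beside each as squares, 2 points per group. The Mutyh gene body has DKO between 40% and 46.5%, Mutyh-/- between 40% and 45.5% and WT above 93%, and in Macf1, Wnt7b and Dtna the squares shift with the circles.

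In 14 CG regions DKO lay on one side of WT in all its library pairs and Mutyh-/- on the other. DKO was above WT and Mutyh-/- below in 10, and the reverse held in 4. Since opposite sides chose these regions, their differences are described here and are no evidence of their own. All 14 had libraries apart, and the size of the difference had a median of 24.5 points. Nup62cl, a nucleoporin-like gene on chromosome X, had 100% and 100% in DKO libraries and 60% and 68.5% in Mutyh-/- libraries. WT beside DKO was at 68% and 77.5%, and the same WT libraries beside Mutyh-/- were at 84.5% and 87.5%. Gpr50, an orphan receptor related to melatonin receptors, had 69% and 60% at its TES in DKO and 38.5% and 31% in Mutyh-/-, with WT at 45.5% and 40.5% beside DKO and at 53.5% and 56% beside Mutyh-/-. Both genes showed DKO well above Mutyh-/- and WT moved the other way.

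The remaining regions of this kind followed the same form. Urm1, a ubiquitin-like modifier that serves in transfer RNA thiolation, had 74% and 70% at its TES in DKO and 42% and 47.5% in Mutyh-/-. Gprc5b, an orphan class C receptor, had 78% and 74.5% in DKO and 53.5% and 51% in Mutyh-/-. Gyk, glycerol kinase, had 96.5% and 100% in its gene body in DKO and 76% and 70.5% in Mutyh-/-. In these 3 the WT level beside DKO minus that beside Mutyh-/- was -13.25, -15.25 and -21.5 points. Cdh10, a type II cadherin, had 88% and 88% in DKO and 61% and 67.5% in Mutyh-/-. Adcy9, an adenylyl cyclase that makes cyclic AMP, had 77% and 69.5% in DKO and 52.5% and 56% in Mutyh-/-. Fstl4, a follistatin-like gene, had 100% and 70% in DKO and 64% and 52.5% in Mutyh-/-, the widest spread between DKO libraries in the group. These gene bodies all had DKO above Mutyh-/- without overlap. Scimp, an adaptor protein of antigen-presenting cells, had 58% and 66% at its TSS in DKO and 38% and 50% in Mutyh-/-. The predicted gene 8430422H06Rik had 73% and 66.5% in DKO and 54% and 58.5% in Mutyh-/-, and the largest WT shift of all, -33.25 points.

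The 4 regions with DKO below WT were Slc6a17, Hsf4, Pcdha3 and Pdgfrb. Slc6a17, a vesicular transporter of neutral amino acids in neurons, had 56.5% and 50% in DKO libraries and 88.5% and 81.5% in Mutyh-/- libraries, a difference of -31.75 points. Hsf4, a heat shock factor, had 41.5% and 45.5% in DKO and 73.5% and 70% in Mutyh-/-, and WT read 69% and 70% beside DKO and 53.5% and 50% beside Mutyh-/-. Pcdha3, a clustered protocadherin, had 41.5% and 29.5% at its TSS in DKO and 59% and 60% in Mutyh-/-. Pdgfrb, the platelet-derived growth factor receptor of pericytes, had 47% and 38.5% at its TSS in DKO and 61% and 66% in Mutyh-/-. Across the 14 regions the WT libraries differed between the lists by 11.75 to 33.25 points, always against the direction of DKO minus Mutyh-/-. Only Gprc5b, Gyk and Nup62cl were also listed in Ogg1-/-, where they were at 80% and 72%, 92% and 100%, and 93% and 96%, on the DKO side of WT in each.

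**Figure D4:**
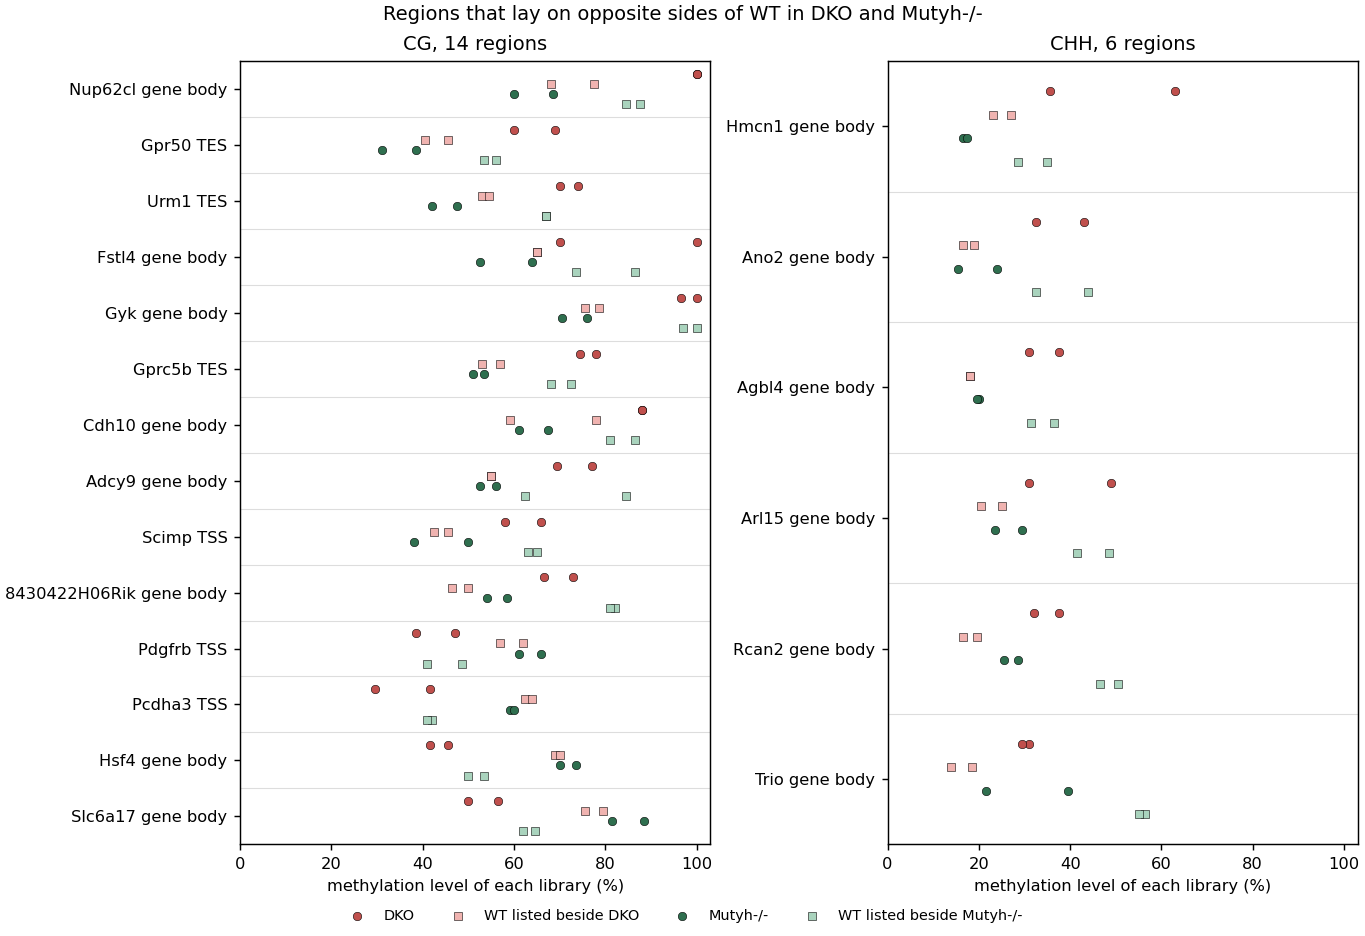
Methylation level (%) of each library in the regions that lay on opposite sides of WT, 14 in CG on the left and 6 distinct ones in CHH on the right, with DKO and Mutyh-/- as circles, the WT libraries listed beside each as squares, and 2 points per group. The light squares of the 2 WT listings come from the same libraries, and their means stand 11.75 to 33.25 points apart in CG.

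Entries of 1 gene with different ends could differ in sign. There were 30 gene and feature keys with several distinct CG entries, all on 1 side of WT per key, and 9 had both signs of DKO minus Mutyh-/-. Anks1b, a protein of the postsynaptic density, had the widest span. Its entry of chr10:89874509-90971984 had 100% and 94% in DKO libraries and 82.5% and 75.5% in Mutyh-/- libraries (18 points, WT shift 19.25). Its entry of chr10:90576727-90971984, which lies inside the first, had 60.5% and 51.5% in DKO and 88.5% and 76% in Mutyh-/- (-26.25 points, WT shift -26). A further entry starting at 90577691 had 58% and 52% in DKO and 73.5% and 52.5% in Mutyh-/- (-8 points, WT shift -7.5). These nested stretches share cytosines, and each difference lay within 1.25 points of its WT shift. Shank2, a scaffold of excitatory synapses, had entries at -9.5 and 5.25 points, with WT shifts of -7.25 and 3.75 points. Ptk2, focal adhesion kinase, had entries at -7.25 and 9.25 points.

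Chromosome X held 74 of the shared CG regions, 42.5% of the DKO and 37.9% of the Mutyh-/- entries there, and 60 of them were gains. The gains were near full methylation, with a median of 93.4% in DKO and 92.6% in Mutyh-/-, and a median difference of 1.88 points. Fgf13, a channel-associated factor, had 100% and 88.5% in DKO libraries and 93% and 88% in Mutyh-/- libraries, which overlapped. Snx12, a sorting nexin, had 85% and 93.5% in DKO and 87.5% and 95.5% in Mutyh-/-. At its TSS, Xlr3a had 53.5% and 70.5% in DKO and 68% and 67% in Mutyh-/-, against 95.5% to 100% in WT. None of these 3 had its groups apart.

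Most shared regions were listed in Ogg1-/- as well. Of the CG regions, 298 had Ogg1-/- values, and Ogg1-/- lay on the same side of WT in 230 of 231 gains and 62 of 64 losses. In these gains the median level was 86% in DKO, 84.75% in Mutyh-/- and 84.25% in Ogg1-/-. The difference of DKO from Mutyh-/- had a median size of 3.75 points, and that of DKO from Ogg1-/- had 4 points. The comparisons share the DKO and WT libraries.

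Shared CG regions in genes of excitatory synapses, channels and adhesion were mostly above WT in both knockouts, and DKO minus Mutyh-/- had both signs among them. Of 58 genes on a list of glutamate receptors and excitatory synapse, 15 had shared CG regions, 20 in number and 19 of them gains, with libraries higher in DKO in 4 and lower in 2. Over all 474 distinct CG regions, 283 were gains and 177 losses, and libraries were higher in DKO in 90 and lower in 59, so the shares with libraries apart in this list were near those of all regions. The median difference was 2.38 points beside 1 point over all 474 distinct regions. Nlgn1, a postsynaptic adhesion molecule, had 77.5% and 60.5% in DKO and 88.5% and 71% in Mutyh-/-, which overlapped. Beside the same totals, 10 of 67 channel genes had 11 regions, all gains, with a median of 1.25 points, and 1 was higher and 1 lower in DKO with libraries apart. Cadherins, protocadherins and catenins had 12 regions (11 gains) in 10 of 42 genes, with a median of 1.62 points.

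Developmental transcription factors showed only losses in CG. Of 133 genes on that list, 6 had a region each (Hoxb5, Irx3, Lhx2, Lhx3, Pax8 and Tbx2), all were below WT in both knockouts, and differences ran from 1.75 to 3.75 points, with libraries higher in DKO in 2, beside 177 losses and 90 higher in DKO of all 474. Lhx2, a homeobox factor of forebrain development, had 45% and 34% in DKO and 36.5% and 35% in Mutyh-/-. Its difference of 3.75 points stood beside a WT shift of 4.25 points, and that of Tbx2, 3.5 points, beside a WT shift of 3.5 points. On the list of Polycomb, Trithorax and chromatin regulators, Cbx8, Hdac9, Kdm6b and Kmt2a had a region each, with a median of 0.38 points. Of 47 DNA repair genes only Mutyh was shared. Neuron markers had Syt1 and Gad1 among 10 genes. Syt1, the calcium sensor of vesicle release, had 89% and 81.5% in DKO and 76.5% and 74.5% in Mutyh-/- (9.75 points), and Gad1, which makes GABA, had 50% and 46% in DKO and 41% and 45% in Mutyh-/- (5 points). The WT shift of Gad1 was 5.75 points, and after WT was subtracted its difference was -0.75 points. Vessel markers had Pdgfrb alone, and astrocyte, oligodendrocyte and microglia markers had no shared CG region. No region of any list passed the limma test in CG.

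CHH methylation was lower than WT in 368 of the 377 shared regions in both knockouts, and 366 of the 377 were gene bodies. The losses had median levels of 28% and 24% in DKO libraries and 24.5% and 24% in Mutyh-/- libraries, against 42% to 45.25% in WT. Such a level is the score of the median cytosine kept in a region, read here as 1 plus the methylated fraction. It is not the methylated share of all CHH cytosines of a gene body. The median difference over all CHH regions was 1.5 points (exact permutation test over the 4 libraries, 2-sided p = 1.0, where 0.333 is the smallest possible). It was -0.25 points without DKO replicate 1 and -0.5 points after WT was subtracted. Libraries were apart in 95 regions, 25.2%, of which 76 (20.2%) were higher in DKO and 19 (5.04%) lower, and the same WT libraries were apart between the lists in 36.1%. Across CHH regions the levels of the genotypes ran together weakly, with r = 0.246 between the means of DKO and Mutyh-/- and 0.224 between the DKO libraries, over a narrow range of levels.

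In the limma fit over CHH, 2 regions passed an adjusted p of 0.05, 0.531% of the 377, and 19 had an unadjusted p below 0.05. Both were gene bodies on opposite sides of WT. The selection fixed the direction of their WT-subtracted change. The level difference is the WT-subtracted difference plus the WT shift, and was positive in 6 of the 7 CHH entries on opposite sides. The WT-subtracted difference was 30.5 to 39.25 points in these 7. A negative level difference therefore needed a WT shift of larger size the other way, as in Trio (-39.5 points). The sign is thus no evidence of its own. The fit used the levels on which these regions had been selected, so its p-values are not independent of that selection. Hmcn1, the matrix protein hemicentin, had 63% and 35.5% in DKO libraries and 16.5% and 17.5% in Mutyh-/- libraries (chr1:150563502-150992435, 32.25 points, limma adjusted p = 2.87e-09). Ano2, a calcium-activated chloride channel, had 43% and 32.5% in DKO and 15.5% and 24% in Mutyh-/- (chr6:125691419-126039128, 18 points, limma adjusted p = 0.0212). WT beside DKO was at 23% and 27% for Hmcn1 and at 16.5% and 19% for Ano2, and beside Mutyh-/- the same libraries were at 28.5% and 35% and at 44% and 32.5%. The fit gave every CHH region the same SE of 4.64 points, whereas the DKO libraries of Hmcn1 were 27.5 points apart. The limma adjusted p of Hmcn1 was 0.736 without DKO replicate 1 and 0.36 without DKO replicate 2, and that of Ano2 was 0.797 and 0.361. Without Mutyh-/- replicate 1 or 2 that of Ano2 was 0.977 and 0.0824.

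The other CHH regions on opposite sides of WT were gene bodies too, with DKO above WT and Mutyh-/- below. Agbl4, a carboxypeptidase that trims glutamates from tubulin, had 31% and 37.5% in DKO and 20% and 19.5% in Mutyh-/- (14.5 points) and was listed under a pair of entries. Arl15, an ARF-like GTPase, had 49% and 31% in DKO and 29.5% and 23.5% in Mutyh-/- (13.5 points). Rcan2, a regulator of calcineurin, had 32% and 37.5% in DKO and 28.5% and 25.5% in Mutyh-/- (7.75 points). Trio, an exchange factor for small GTPases, had 31% and 29.5% in DKO and 39.5% and 21.5% in Mutyh-/-, which overlapped, with a difference of -0.25 points (-9.35 to 8.85). The WT level of Trio was at 18.5% and 14% beside DKO and 56.5% and 55% beside Mutyh-/-.

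Among CHH regions below WT in both whose libraries did not overlap, the largest differences of annotated genes had a WT shift of the same sign. Slc13a3, a dicarboxylate transporter, had 29% and 38% in DKO libraries and 22.5% and 16.5% in Mutyh-/- libraries (14 points), and its WT level was 33.5 points higher beside DKO. Pld5 had 36% and 24.5% in DKO and 17% and 18% in Mutyh-/- (12.75 points, WT shift 9.5). Fmn1, a formin, had 29.5% and 40.5% in DKO and 26% and 20% in Mutyh-/- (12 points, WT shift 21). Sntb1, a syntrophin, had 33.5% and 25% in DKO and 17.5% and 17.5% in Mutyh-/- (11.75 points, WT shift 19.5). In these 4 gene bodies both DKO libraries were the higher ones. On the other side, Eml1, a microtubule-associated protein, had 26.5% and 21% in DKO and 34% and 35% in Mutyh-/- (-10.75 points, WT shift -13). Pla2g7, which degrades platelet-activating factor, had 16.5% and 21.5% in DKO and 24.5% and 28% in Mutyh-/- (-7.25 points, WT shift -12.75). Prima1, which anchors acetylcholinesterase, and Fam19a4 each had -6.25 points, with WT shifts of -8 and -5.5 points, and Prima1 had 1.75 points after WT was subtracted. The predicted genes D630003M21Rik and 1110007C09Rik had -12 and -7.75 points, with WT shifts of -14 and -10.5 points. The limma adjusted p of the 8 annotated genes ran from 0.197 to 0.977.

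Of the 19 gene lists, 6 had no shared CHH region, 6 had 1 and the others had 3 to 11. Losses made up 341 of all 349 distinct CHH regions, and libraries were apart in 66 higher and 18 lower in DKO. Collagens and extracellular matrix had 11 genes of 70, all losses, with a median difference of 1 point beside 1.5 points over all 349 distinct regions, and libraries were apart in 1, lower in DKO. Wnt, BMP, FGF, Notch and Hedgehog signalling had 8 genes of 74, all losses, with a median of 0.25 points and a range from -10 to 5 points. Plasticity and CREB signalling had Camk2d, Itpr1, Pde10a and Prkca, all losses, with differences from 4.25 to 8.25 points. Libraries were higher in DKO in 3 of these 4, beside 66 of all 349 distinct regions. The WT shifts of these 4 are not given here. Developmental transcription factors had 6 regions in Foxp2, Pax2, Pax7, Sox6 and Twist2, all losses, with a median of 3.88 points.

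Few gene bodies were shared in both contexts at the same location, 19 with repeats counted once. CG was above WT and CHH below WT in both knockouts in 10 of them, and both contexts were below WT in 5. Ano2 and Agbl4 were gains in CG and on opposite sides in CHH. In CG, Ano2 had 100% and 96.5% in DKO libraries and 86% and 79.5% in Mutyh-/- libraries (15.5 points, SE 4.3, limma adjusted p = 0.497). DKO thus read higher than Mutyh-/- in both contexts, but the mean CG level of WT was also higher beside DKO (69.75%) than beside Mutyh-/- (60.75%). Agbl4 had 98.5% and 95.5% in DKO and 88.5% and 95% in Mutyh-/- in CG (5.25 points). Its mean CG level of WT was 74.75% beside DKO and 70.25% beside Mutyh-/-. Fhit was the shared gain in both contexts, and its CHH level was 34% and 39% in DKO and 40% and 27.5% in Mutyh-/-, which overlapped.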

How the data were processed

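Hippocampal DNA of 2 libraries per genotype was bisulfite sequenced. Per the study's methods, the authors checked reads with FastQC, aligned them with Bismark 0.22.3 to GRCm38 and dropped cytosines with a coverage under 4. They took regions at the TSS, the TES and gene bodies with at least 3 (gene body 5) sites at most 200 bp apart. The width of 2 kb of TSS and TES regions is read from their coordinates. The deposited score is the median of a region in 1 library within a knockout and WT pair, on a scale from 1 to 2 read here as 1 plus the methylated fraction. The authors kept regions whose relative ratio passed 0.1 in all 4 pairs, so depth per region and regions below the limit were not analysed here. Columns of the authors' own tests and ratios, and the CHG context, were not used.

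The score minus 1, times 100, was averaged for each library over its 2 pairs. Starts were shifted to count from 1. DKO and Mutyh-/- were compared with limma 3.58.1 in R 4.3.3 (2 against 2, no trend, Benjamini-Hochberg over all shared regions of a context, threshold 0.05) after the procedure was tested on simulated data. The CG prior had 2.93 degrees of freedom. Regions named were the 3 largest differences per feature and side without overlap (4 per side in CHH), the 2 largest changes from WT per feature and side, the 2 largest differences per gene list, and all regions past the threshold or on opposite sides of WT. Same-side regions ranking after the opposite ones, genes with several entries and genes in both contexts were named after their values were seen. Members and the 19 gene lists were chosen with earlier results of these data known. Alternatives were WT subtraction, a single WT library, log odds, single entries, centring, a spread trend, WT agreement within 5 points, a replicate block, a ratio of 0.12 and leaving out each library. Some regions that these rules name are not reported here.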

Additional observations from a re-analysis of the deposited data

Results flagged for a closer look

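The regions on opposite sides of WT were singled out because every library pair of DKO moved one way from WT and every pair of Mutyh-/- the other. That opposition was the criterion, and the same WT libraries had different levels in the 2 lists. DKO minus Mutyh-/- was tested in the limma fit, on levels that the selection had used. No CG region passed, and the CHH regions of Hmcn1 and Ano2 did.

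In CG gene bodies the difference was 35.75 points for Nup62cl, 26.75 for Fstl4, 25 for Gyk, 23.75 for Cdh10, 19 for Adcy9, 13.5 for 8430422H06Rik, -28.25 for Hsf4 and -31.75 for Slc6a17. At CG start sites it was 18 for Scimp, -20.75 for Pdgfrb and -24 for Pcdha3, and at CG end sites 29.75 for Gpr50, 27.25 for Urm1 and 24 for Gprc5b. In CHH gene bodies it was 32.25 points for Hmcn1, 18 for Ano2, 14.5 for Agbl4, 13.5 for Arl15, 7.75 for Rcan2 and -0.25 for Trio. With 2 libraries per genotype, no group was large enough to look for single outlying libraries.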

How the results depend on the processing

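CG calls by limma were 0 with 34 unadjusted, and stayed 0 under the alternatives not named here (1 to 44 unadjusted, the 1 with WT within 5 points). Subtracting WT gave 14, the regions on opposite sides, whose direction the selection fixed (10 higher in DKO, 4 lower). Centring gave 12 (7 higher, 5 lower), of which 10 were such regions and the others Dtna and Anks1b. A relative ratio of 0.12, chosen after seeing the data, left 21 regions and 1 call, Gpr50. CHH calls were 2, and 7 after subtracting WT. They were 0 with either WT library alone, centring, a spread trend, WT within 5 points, a ratio of 0.12, or without opposite regions, and 0 to 1 without a library. The median was 0.0 in CG and -0.5 in CHH after subtracting WT, and -0.5 to 2 and -0.25 to 3.25 without a library, lowest without DKO replicate 1. The cause was not tested.

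The labels link same-numbered libraries only by their number, so whether they shared a batch is not known. Their deviations had a correlation of 0.102 in CG and 0.0523 in CHH. With the replicate block there were 0 calls in CG (39 unadjusted) and 0 in CHH (10 unadjusted). A filter on the deposited p was not run, since it is the authors' own comparison.

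Signs turned, in points, after subtracting WT in Bloc1s1 (-1.75), Susd1 (1.5), Anks1b (-1.25), Fgf13 (-15.5), Snx12 (3), Rtn4r (-0.25), Gad1 (-0.75), Col19a1 (2.5), Lhx2 (-0.5), Inpp5f (0.5) and, in CHH, Slc13a3 (-19.5), Fmn1 (-9), Sntb1 (-7.75), Eml1 (2.25), Pla2g7 (5.5), Prima1 (1.75) and Trio (39.25). With WT replicate 2 alone they turned in Mutyh (-0.5) and Mif4gd (2.5), with WT replicate 1 alone in Cacna2d1 (-0.5) and Trio (2), and as log odds in Trio (0.025). Without a library the ranges were -14 to 3 for Xlr3a, -2 to 9.5 for Fgf13, -6.5 to 2 for Snx12, -2.75 to 3.75 for Mutyh, -2.5 to 4.5 for Rtn4r, -3.5 to 10 for Hprt, -11.25 to 6.25 for Mif4gd, -8.25 to 1.75 for Hdac9, -1.25 to 6.75 for Shh, -2 to 34.5 for Pcdh19, -8.75 to 0.75 for Col19a1, -1.75 to 9.25 for Lhx2, -10.25 to 3.75 for Inpp5f, -3.5 to 21.5 for Cacna2d1 and -9.25 to 8.75 for Trio.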

Other observations

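Of the shared CHH regions, 228 were listed in Ogg1-/- as well, and 227 of them lay below WT there too. Their median level was 26% in DKO, 24.5% in Mutyh-/- and 23.75% in Ogg1-/-. The single microglia marker with a shared region was P2ry12, a purinergic receptor, in CHH, with a difference of -1 point.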
